A study of Mus musculus with 10 samples.

Results

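The genes described here make, trim and regulate glycogen, the glucose store of the liver. They are 9 genes chosen by name: Ugp2, Gys2 and Gbe1 of the synthesis route, Pygl, Phka2 and Phkg2 of the breakdown route, and Ppp1r3b, Ppp1r3c and Ppp1r3g, which bring a phosphatase to the glycogen particle. All 9 were measured, by 16 probes of a mouse array, among 27670 genes or transcripts named on the array, of which 18921 were bright enough to be tested. RNA came from the livers of 5 mice lacking the glucagon receptor (KO, genotype GCGR ko/ko, 3 females and 2 males) and 5 wild-type mice (WT, genotype wt/wt, 2 females and 3 males). The question was which liver transcripts differ when the receptor for glucagon, the fasting hormone of the pancreas, is missing. Each liver's RNA, labelled with Cy5, shared its array with the same Cy3-labelled pooled mouse reference RNA, so every value is a log2 ratio of a liver over that reference, and values of different genes cannot be ranked against each other. Strain, age, diet, time of feeding, any treatment and the part of the gene that was removed are not given in the sources used here.

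Glucagon binds its receptor on hepatocytes and raises cyclic AMP, which activates protein kinase A. The kinase switches on phosphorylase kinase, which in turn activates glycogen phosphorylase and starts glycogen breakdown, while glycogen synthase is switched off by phosphorylation. Protein phosphatase 1, held on the particle by its glycogen-targeting subunits, reverses these steps. Most of this control acts on the proteins themselves, and arrays measure RNA only.

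The RefSeq promoter table of build GRCm38.p6 held 7 of the 9 genes, with windows from 250 bases before to 50 bases after the start of transcription. 3 motifs were searched on both strands: TGACGTCA, the full cyclic AMP response element, TGACG, a shorter form that lies inside it, and CACGTG, an E-box. The 250 upstream bases are shown for Gbe1, the member that changed, and for the 3 members that held a motif, which is in capitals.
Gbe1, chr16:70313699-70313948, plus strand: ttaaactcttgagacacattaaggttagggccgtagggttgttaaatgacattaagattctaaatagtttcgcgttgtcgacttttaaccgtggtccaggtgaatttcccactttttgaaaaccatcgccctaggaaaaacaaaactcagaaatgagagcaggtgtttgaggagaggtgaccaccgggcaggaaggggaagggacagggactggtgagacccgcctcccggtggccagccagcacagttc
Pygl, chr12:70227684-70227933, minus strand: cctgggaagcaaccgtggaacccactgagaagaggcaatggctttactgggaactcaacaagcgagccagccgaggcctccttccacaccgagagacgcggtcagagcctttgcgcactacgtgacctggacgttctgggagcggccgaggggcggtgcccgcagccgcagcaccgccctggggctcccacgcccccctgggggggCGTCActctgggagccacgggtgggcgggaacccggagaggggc
Ppp1r3c, chr19:36736605-36736854, minus strand: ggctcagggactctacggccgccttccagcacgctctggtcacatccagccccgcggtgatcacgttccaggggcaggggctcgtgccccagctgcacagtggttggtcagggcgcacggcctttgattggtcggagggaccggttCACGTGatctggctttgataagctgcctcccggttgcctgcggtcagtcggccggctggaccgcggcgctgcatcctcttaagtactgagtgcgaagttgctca
Ppp1r3g, chr13:35967656-35967905, plus strand: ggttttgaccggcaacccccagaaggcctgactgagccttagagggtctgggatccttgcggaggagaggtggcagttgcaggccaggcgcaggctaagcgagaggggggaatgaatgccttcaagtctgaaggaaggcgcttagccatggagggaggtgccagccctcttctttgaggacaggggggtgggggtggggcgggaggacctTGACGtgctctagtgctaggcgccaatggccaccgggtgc
The window of Gbe1 held none of the 3 motifs. TGACG stood in Ppp1r3g at -40 and, read on the opposite strand, in Pygl at -44, and CACGTG stood in Ppp1r3c at -104, each position being that of the match's first printed base, counted back from the start. Of 32851 promoters in the table, 20.8% held TGACG, 7.15% held CACGTG and 1.79% held TGACGTCA, so the matches in these genes describe letters only.

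Before the genes themselves, Gcgr checked the labels. Its log2 ratio was 0.32 ± 0.04 in KO livers and 7.99 ± 0.16 in WT livers (SD, n = 5 each), and it fell by 7.66 on the log2 scale (SE 0.08, limma adjusted p = 1.08e-13). The tissue label fitted its markers, with 9 hepatocyte genes averaging 7.27 to 7.38 in KO livers and 6.97 to 7.59 in WT livers. None of the 9 passed for genotype in limma, and 1 had an unadjusted p under 0.05. Arrays lay on 4 slides, with a median net Cy5 signal of 112 to 134 on slides 1 and 2 and of 58.7 to 78.9 on slides 3 and 4. Female KO livers were all on slides 1 and 2 and female WT livers both on slide 3, so genotype among females and slide cannot be told apart. Slide 1 held KO livers 1 (male) and 2 (female) with the male WT livers 1 and 2. Slide 3 held the male KO liver 5 with the female WT livers 3 and 4. Each gives a plain difference within the slide, with the sexes unmatched in both. Slide 2 held only the female KO livers 3 and 4, and slide 4 only WT liver 5. The adipocyte gene Cfd was at 7.22 and 5.56 in the male KO livers 1 and 5 and at 1.31 or less in the other 8 livers. Its KO effect differed between the sexes by -5.64, females minus males (limma adjusted p = 0.0112). At a threshold of 0.05 this held for 0.0317% of all genes tested. Of 4 adipocyte markers bright enough to test, none passed for genotype in limma, 2 had an unadjusted p under 0.05, and their mean was 0.74 to 2.99 in KO livers and 0.83 to 1.25 in WT livers. Fabp4 was also highest in KO livers 1 and 5, at 4.52 and 4.34, while Plin1 was lowest in KO liver 5, at -0.20.

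Gbe1 was the only one of the 9 to pass for genotype, higher in KO livers by 1.18 on the log2 scale. The count of 1 in 9 stands against 5.99% of all genes tested (2.9% higher and 3.1% lower), so it is a result about Gbe1 and not about the group. The median change was 0.07 over the 9 members and -0.0027 over all genes. A gene was said to pass where limma's adjusted p over all genes, in a model with genotype and sex, was under 0.05. By that fit 3 of the 9 members had an unadjusted p under 0.05, as did 3959 of all 18921 genes tested.

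**Figure D1:**
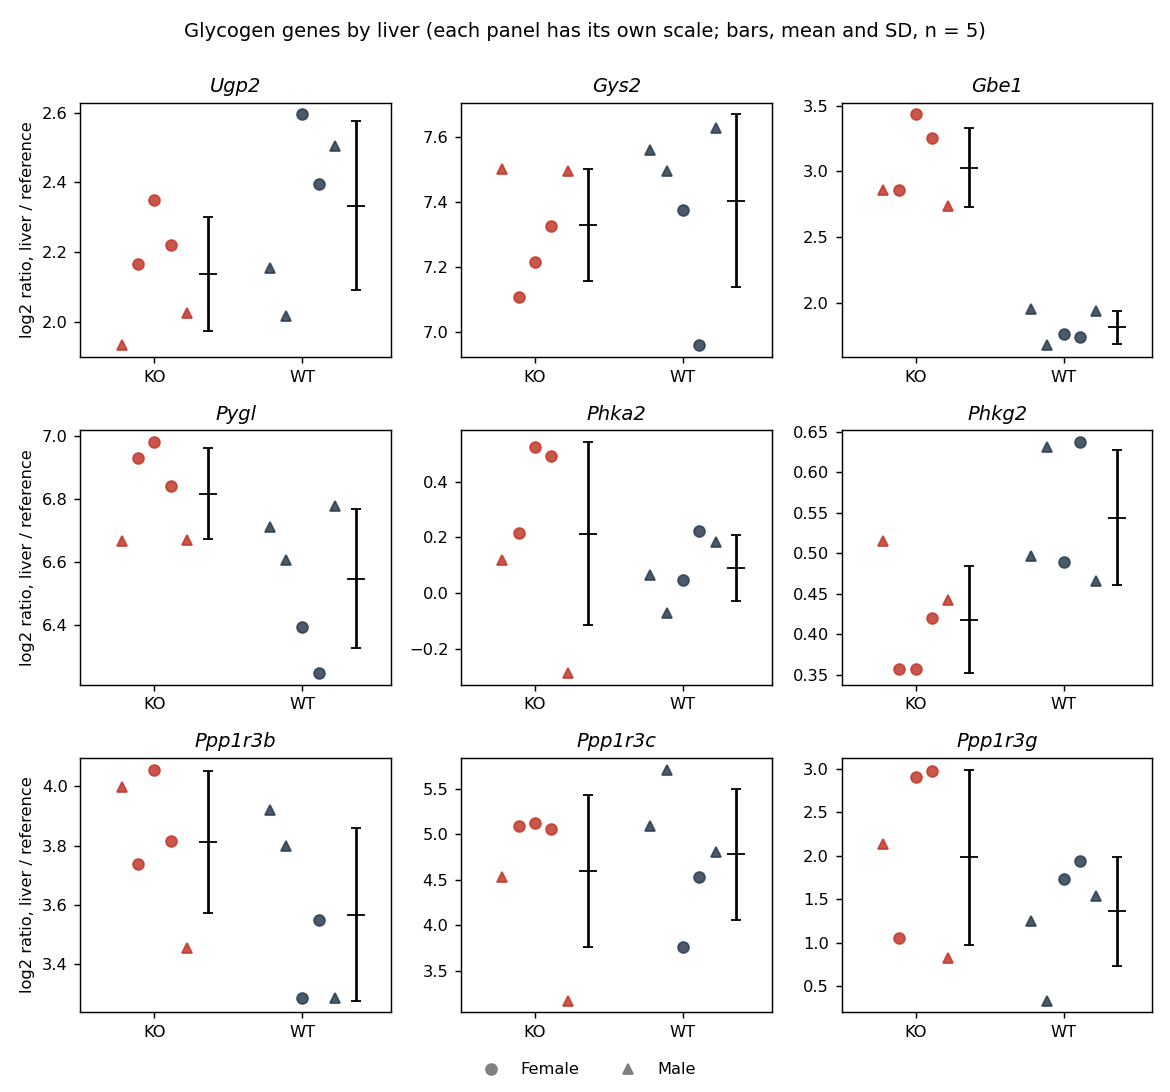
Log2 ratio of each liver over the reference RNA for the 9 glycogen genes, KO livers left of WT livers, circles for females and triangles for males, with mean and SD (n = 5) beside them. The groups lie apart for Gbe1, with KO livers at 2.74 and above and WT livers at 1.96 and below, and overlap for the other 8 genes.

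Gbe1 encodes the branching enzyme, which moves short stretches of a growing chain into side branches and so makes glycogen soluble and compact. Its log2 ratios were 2.86, 2.86, 3.43, 3.25 and 2.74 in KO livers 1 to 5, against 1.96, 1.68, 1.76, 1.75 and 1.94 in WT livers 1 to 5. Every KO liver lay above every WT liver, as for 2.97% of all genes tested without a missing value (6.06% counting both directions). The highest values were those of the female KO livers 3 and 4, the only arrays on slide 2. The female KO liver 2, on slide 1, was at 2.86, as was the male KO liver 1. The means were 3.03 ± 0.30 in KO livers and 1.82 ± 0.12 in WT livers (SD, n = 5 each). With sex in the model the increase was 1.18 on the log2 scale, which is 2.27-fold (SE of the log2 value 0.13, limma adjusted p = 0.000423). By size of increase Gbe1 ranked 45 among the 18921 genes, and it was 1 of 55 (0.291%) that passed with at least a 2-fold increase. The difference was 1.04 within slide 1 and 0.98 within slide 3. It was 1.43 (SE 0.16) in females and 0.94 (SE 0.16) in males, and these did not differ past the threshold (difference 0.49, SE 0.22, limma adjusted p = 0.398). The array carries a single probe for it, at chromosome 16, 70563084 to 70563143 of build mm7, the build of the array files.

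Of 8 markers of endothelial cells, all measured, 3 passed for genotype beside Gbe1, all higher in KO livers, as did 2.9% of all genes tested. Lyve1, Oit3 and Pecam1 rose by 1.47, 0.34 and 0.26 on the log2 scale (limma adjusted p = 0.00671, 0.0432 and 0.0455). The other 5 did not pass, from Clec4g at 0.09 and Dnase1l3 at 0.09 to Cdh5 at 0.52. In females, where the difference of Gbe1 was 1.43, the 8 ran from Clec4g at -0.20 and Dnase1l3 at -0.18 to Lyve1 at 1.17. Between them were Kdr at 0.0004, Stab2 at 0.15, Pecam1 at 0.28, Oit3 at 0.29 and Cdh5 at 0.46. In males the 8 ran from Stab2 at 0.24 and Pecam1 at 0.25 to Lyve1 at 1.76. Kdr was at 0.32, Clec4g and Dnase1l3 both at 0.37, Oit3 at 0.40 and Cdh5 at 0.59. The mean over the 8 was 3.85 to 4.10 in KO livers and 3.24 to 3.80 in WT livers, without overlap. Taken singly, 2 of the 8 had every KO liver above every WT liver, as did 2.97% of all genes tested without a missing value. The 5 genes whose log2 ratios ran most like those of Gbe1 over the 10 livers were Zfp385a, Erg, Afap1l1, Plekhg1 and Fkbp1a, with Pearson's r of 0.985, 0.981, 0.972, 0.967 and 0.965. Erg encodes a transcription factor known from endothelial cells. These points share the genotype difference and the reference RNA, and the r is a description. In whole liver a change in the number of cells of a type and a change of RNA per cell cannot be told apart, and the part of the endothelial markers in the Gbe1 result was not tested.

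The other synthesis genes did not pass for genotype. Gys2 encodes the liver's glycogen synthase, which lengthens the chains. Its log2 ratios were 7.50, 7.11, 7.22, 7.33 and 7.49 in KO livers 1 to 5, against 7.56, 7.50, 7.37, 6.96 and 7.63 in WT livers 1 to 5. The groups overlapped throughout, with a difference of -0.01 (SE 0.09, limma adjusted p = 0.978) whose sign turned under several other settings, to 0.11 with median centring among them. It was -0.22 within slide 1 and 0.33 within slide 3. The sexes are not matched within these slides, and every female liver lay below every male liver for Gys2. The part of sex in these values was not tested.

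Ugp2 encodes the enzyme that makes UDP-glucose, the donor for the synthase, and has 2 probes. By the brighter probe, chromosome 11, 21275271 to 21280897 of mm7, the log2 ratios were 1.93, 2.17, 2.35, 2.22 and 2.02 in KO livers 1 to 5, against 2.15, 2.02, 2.59, 2.40 and 2.50 in WT livers 1 to 5. KO livers lay mostly low but the groups overlapped, and the difference of -0.25 (SE 0.10, limma adjusted p = 0.159) did not pass. By the dimmer probe, at 21273287 to 21273346, values were 1.57, 2.04, 2.20, 1.98 and 1.67 in KO livers 1 to 5, against 2.14, 2.0, 2.51, 2.17 and 2.33 in WT livers 1 to 5. There the difference was -0.40 (SE 0.10, limma adjusted p over probes = 0.0388). That call ended in 15 of 22 other settings tested, among them the authors' value table (limma adjusted p = 0.0524), slide as a fixed block (limma adjusted p = 0.0691) and each liver left out other than KO liver 3 and WT liver 4 (limma adjusted p from 0.0515 to 0.132). Both probes had the same sign in females and in males.

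Of the breakdown genes, Pygl, the liver's glycogen phosphorylase, came nearest to the threshold. Its log2 ratios were 6.66, 6.93, 6.98, 6.84 and 6.67 in KO livers 1 to 5, against 6.71, 6.60, 6.39, 6.25 and 6.78 in WT livers 1 to 5. The female KO livers 2, 3 and 4 were the 3 highest of all and the female WT livers 3 and 4 the 2 lowest, with all males between them. Over all livers the difference was 0.28 (SE 0.11, limma adjusted p = 0.178). It was 0.60 (SE 0.09) in females and -0.03 (SE 0.09) in males, and the difference between the sexes, 0.63 (SE 0.13), did not pass (limma adjusted p = 0.145). With both male KO livers left out, Pygl was 0.60 higher in KO livers and passed (limma adjusted p = 0.0124), in a fit chosen after the values of Cfd were seen. That difference is the female comparison again, in which genotype and slide cannot be told apart. A dimmer second probe differed by 0.07 (SE 0.23, limma adjusted p over probes = 0.901), with 0.49 in females and -0.34 in males.

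Phka2 and Phkg2 encode the liver forms of the regulatory alpha and the catalytic gamma subunit of phosphorylase kinase. Phka2 had log2 ratios of 0.12, 0.21, 0.52, 0.49 and -0.29 in KO livers 1 to 5, against 0.06, -0.07, 0.05, 0.22 and 0.18 in WT livers 1 to 5. KO livers held both the highest values, in livers 3 and 4 of slide 2, and the lowest, in liver 5, and the difference was 0.07 (SE 0.12, limma adjusted p = 0.804). Its sign turned to -0.04 with slide as a fixed block and to -0.02 without WT liver 3. Of its 4 probes 2 were too dim to be tested, and the other dimmer one differed by 0.03 (SE 0.10, limma adjusted p over probes = 0.914). Phkg2 had 0.52, 0.36, 0.36, 0.42 and 0.44 in KO livers 1 to 5, against 0.50, 0.63, 0.49, 0.64 and 0.47 in WT livers 1 to 5. The groups overlapped through KO liver 1, and the difference was -0.12 (SE 0.07, limma adjusted p = 0.351). A dimmer second probe of Phkg2 had the other sign, 0.02 (SE 0.09, limma adjusted p over probes = 0.939).

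**Figure D2:**
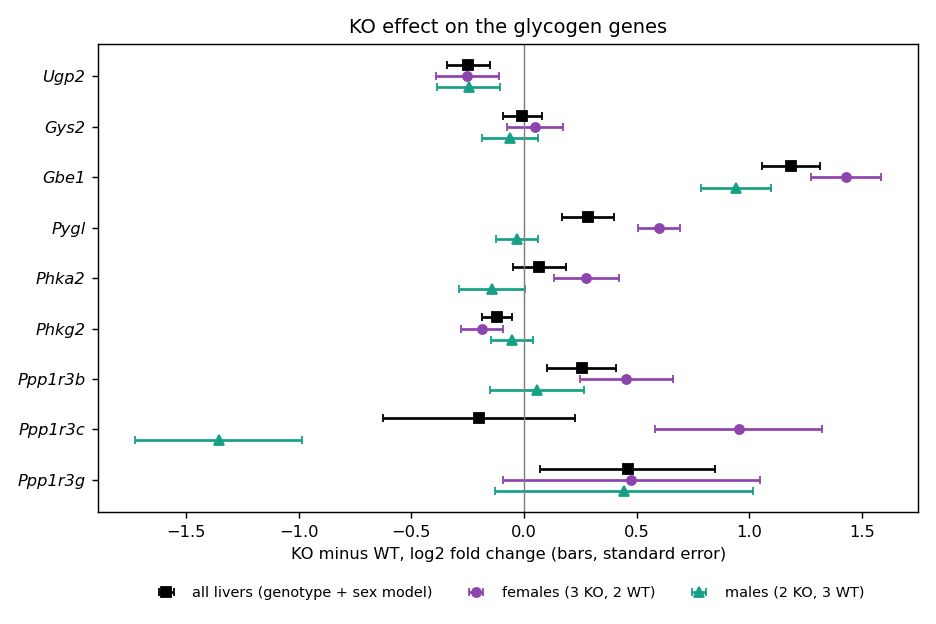
Log2 fold change, KO minus WT, of the 9 glycogen genes with standard errors, from all livers (squares), females (circles, 3 KO and 2 WT) and males (triangles, 2 KO and 3 WT). Gbe1 is above 0 in both sexes, at 1.43 and 0.94, while Ppp1r3c is at 0.95 in females and -1.35 in males.

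The 3 targeting subunits of protein phosphatase 1 did not pass for genotype. Ppp1r3b, the main such subunit of rodent liver, had 4.0, 3.74, 4.06, 3.81 and 3.45 in KO livers 1 to 5, against 3.92, 3.80, 3.28, 3.55 and 3.28 in WT livers 1 to 5. The groups overlapped, with a difference of 0.26 (SE 0.15, limma adjusted p = 0.382) that came to 0.01 within slide 1 and 0.04 within slide 3.

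Ppp1r3c, also called protein targeting to glycogen, had 4.53, 5.09, 5.12, 5.07 and 3.17 in KO livers 1 to 5, against 5.10, 5.71, 3.76, 4.53 and 4.81 in WT livers 1 to 5. Both female groups lay apart, with KO livers high, and both male groups lay apart the other way, with KO livers low. Over all livers the difference was -0.20 (SE 0.43, limma adjusted p = 0.838). Its sign turned to 0.33 without KO liver 5, to 0.02 without WT liver 2 and to 0.95 with the female KO livers alone. With slide as a fixed block it was -0.71 (limma adjusted p = 0.0751). Within slide 1 and within slide 3 every KO liver lay below every WT liver, with the sexes unmatched. The KO minus WT difference was 0.95 (SE 0.37) in females and -1.35 (SE 0.37) in males, a difference between the sexes of 2.31 (SE 0.52, limma adjusted p = 0.173). With slide as a fixed block that difference was 0.46 (limma adjusted p = 0.992), and without KO liver 1 it was 2.99 and passed (limma adjusted p = 0.0233). The dimmer second probe had 1.76, 2.15, 2.58, 2.33 and 1.09 in KO livers 1 to 5, against 2.45, 2.84, 1.37, 1.66 and 1.97 in WT livers 1 to 5. It too was higher in KO livers among females, by 0.84, and lower among males, with a difference of -1.0. By both probes the livers of slide 3, KO liver 5 and WT livers 3 and 4, held the lowest values, with KO liver 1 next. The low male KO livers are the 2 with high Cfd and Fabp4, though not Plin1, and the part of the Cfd signal or of the slide in this pattern was not tested.

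Ppp1r3g, a targeting subunit described in mouse liver as rising on fasting, had 2.14, 1.06, 2.91, 2.98 and 0.82 in KO livers 1 to 5, against 1.24, 0.33, 1.73, 1.94 and 1.54 in WT livers 1 to 5. KO livers 3 and 4, of slide 2, were highest and WT liver 2 lowest, but the groups overlapped, and the difference was 0.46 (SE 0.39, limma adjusted p = 0.561). It was 0.81 within slide 1 and -1.02 within slide 3. The probe was well above background in all 5 KO livers and in 4 WT livers.

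**Figure D3:**
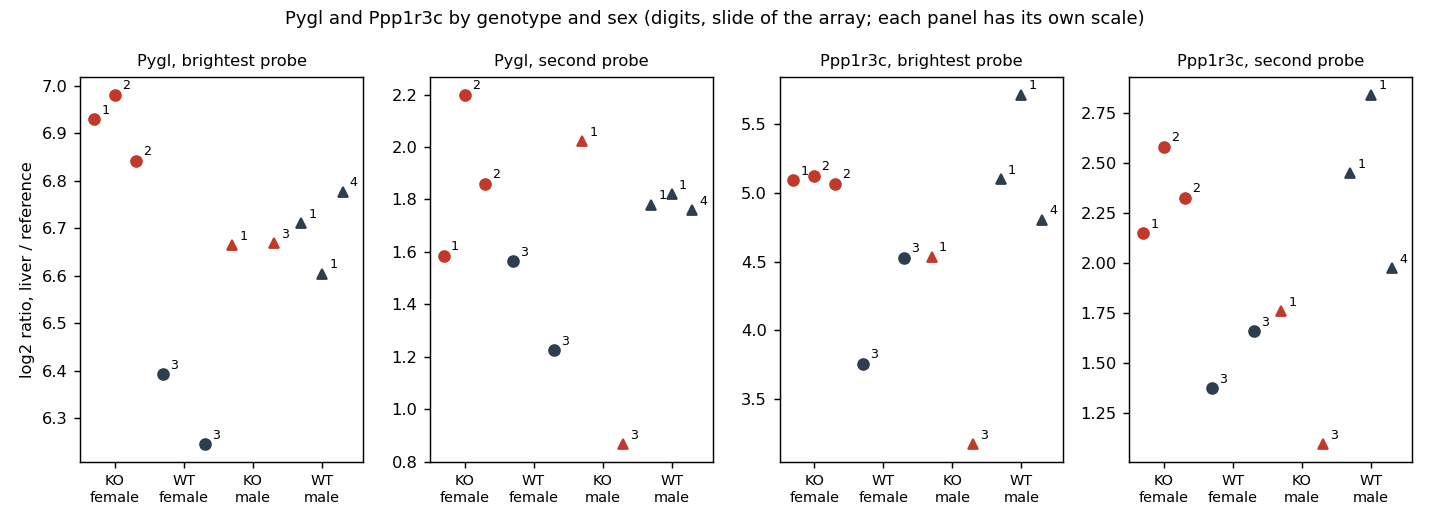
Log2 ratio over the reference RNA of both probes of Pygl and of Ppp1r3c in female KO, female WT, male KO and male WT livers, each point 1 liver with the number of its slide. Ppp1r3c shows female KO livers above female WT livers and male KO livers below male WT livers by both probes, and female WT livers all come from slide 3.

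No member passed for a KO effect that differed between the sexes, against 0.0317% of all genes (6 genes), although 3 of the 9 had an unadjusted p under 0.05 in that limma fit, against 12.5% of all genes. For sex itself, 1 of the 9 passed, against 11.5% of all genes (4.99% higher and 6.54% lower in females). It was Gys2, lower in females, with a difference of -0.34, females minus males (SE 0.09, limma adjusted p = 0.0279). Its 5 female livers, of both genotypes, were all below its 5 male livers, with females at 7.37 or less and males at 7.49 or more. That call ended with slide as a fixed block (-0.38, limma adjusted p = 0.0702) and with outlier spots removed after the background fit (-0.04, limma adjusted p = 0.966). It also ended without KO liver 1, 2 or 3 or WT liver 1 or 4 (limma adjusted p from 0.0533 to 0.0708).

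Among the members themselves the closest pairs over the 10 livers were Ppp1r3g with Phka2 (Pearson's r = 0.840) and Gbe1 with Pygl (0.736). The most opposed were Pygl with Phkg2 (-0.811) and Gbe1 with Phkg2 (-0.766). These r include the genotype difference. With genotype and sex taken out, Gbe1 with Phka2 was the closest pair (0.841, against 0.509 before). Ppp1r3g with Phka2 was then at 0.750, Gbe1 with Pygl at 0.681, Pygl with Phkg2 at -0.754 and Gbe1 with Phkg2 at -0.464. The genes most like the other members were B230317F23Rik for Gys2 (0.969), Asb18 for Pygl (0.944), AK045692 for Ugp2 (0.956), Coa3 for Ppp1r3b (0.963) and Manbal for Ppp1r3c (0.920). For Ppp1r3g it was Camk2n1 (0.926), for Phka2 Zfp503 (0.950) and for Phkg2 Psmd14 (0.940). These are the highest values over all genes tested, on 10 arrays that share a reference and slides, and they are given as a description.

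Of 15 other glycogen genes reported, among them glycogenin, the phosphatase catalytic subunits, the synthase kinases and the malin gene, none passed for genotype in limma, 1 had an unadjusted p under 0.05 and the median change was 0.02. Stbd1, which tethers glycogen to membranes, had the largest difference of them, 0.29 (SE 0.19, limma adjusted p = 0.425), which was -0.09 with the female KO livers alone. Epm2a, which encodes the glycogen phosphatase laforin, came next at -0.19 (SE 0.07, limma adjusted p = 0.116).

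Of the muscle and brain forms of these enzymes 4 of 6 were bright enough to test. None passed in limma, 1 had an unadjusted p under 0.05 and the median change was 0.07. Pygb, brain phosphorylase, differed by 0.26 (SE 0.09, limma adjusted p = 0.114). It passed in 1 of 24 fits, that of the scanner's ratios (limma adjusted p = 0.0356). With the mean of its probes it differed by 0.14 (limma adjusted p = 0.425). Phka1 differed by 0.11 (SE 0.07, limma adjusted p = 0.404).

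Of 7 genes reported for the entry and exit of glucose 6-phosphate, the sugar from which glycogen is made, 1 rose and 1 fell, with a median of 0.10. Slc2a2, the glucose carrier GLUT2, averaged 7.66 ± 0.23 in KO livers and 6.97 ± 0.20 in WT livers (SD, n = 5 each), without overlap, and rose by 0.67 (SE 0.13, limma adjusted p = 0.0105). Its second probe rose by 0.54 (limma adjusted p over probes = 0.0144), while the call ended with the scanner's own ratios (0.38, limma adjusted p = 0.332) and with outlier spots removed after the background fit, where the difference was larger (1.03, limma adjusted p = 0.246). G6pc, the catalytic subunit of glucose 6-phosphatase, had 5.62, 5.63, 5.68, 5.66 and 5.91 in KO livers 1 to 5, against 6.13, 5.90, 6.21, 5.94 and 6.26 in WT livers 1 to 5. KO liver 5 reached just past WT liver 2, and G6pc fell by 0.37 (SE 0.09, limma adjusted p = 0.0367), a call that ended with outlier spots removed after the background fit (-0.24, limma adjusted p = 0.542), with median centring (-0.32, limma adjusted p = 0.277), with slide as a fixed block (-0.31, limma adjusted p = 0.097) and without each of KO livers 1 to 4 and WT livers 1, 3 and 5 (limma adjusted p from 0.0564 to 0.122).

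The 6 subunits of protein kinase A, the step between the receptor and phosphorylase kinase, had a median change of -0.11. None passed in limma, and 1 had an unadjusted p under 0.05. That was Prkar2a, a regulatory subunit, at -0.25 (SE 0.07, limma adjusted p = 0.0571, and 0.0398 without WT liver 1), followed in size by Prkar1a at -0.13 (SE 0.08, limma adjusted p = 0.372).

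**Figure D4:**
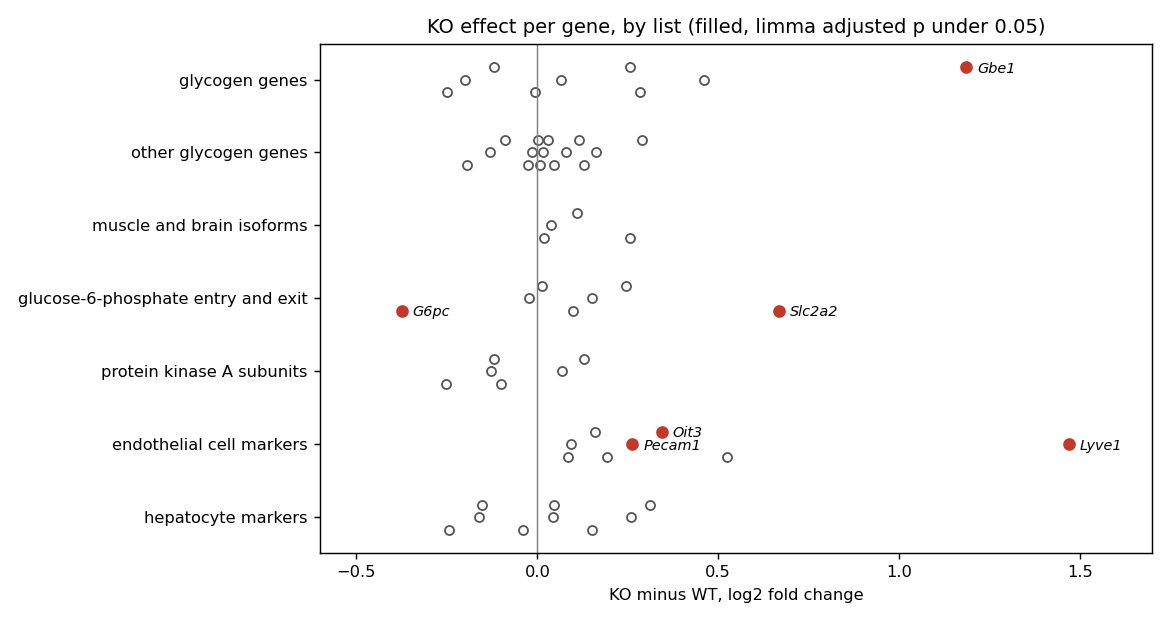
Log2 fold change, KO minus WT, of each gene measured in the glycogen genes, 4 related lists and the endothelial and hepatocyte markers, 1 point a gene, filled where limma's adjusted p was under 0.05. Gbe1 at 1.18 is the only filled point among the 9 glycogen genes, and none of the 15 other glycogen genes is filled.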

How the data were processed

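Total RNA labelled with Cy5 was hybridised against Cy3-labelled universal mouse reference RNA on Agilent arrays (design 014868), per the labels and the file headers. The submitters' processing notes name Feature Extraction 10.7, and the headers name 10.7.3.1. Mean spot signals and local background medians were deposited as linear intensity. The LogRatio, per the file headers, is the scanner's log10 of Cy5 over Cy3. The authors' deposited table correlated with the log2 ratios used here at 0.9994 to 0.9996, which does not show the base of its logarithm. Its Gcgr difference was -7.62, against -7.66 here, so its values have the size of log2 ratios. The table was made by steps not given in the sources used here, with column medians of 0.00776 to 0.023.

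Of 45018 spots 1639 were controls. Spots with outlier flags, background flags included (169 to 291 per array), were left out, signals corrected with normexp (offset 50) and log2 ratios normalised by loess within each array. Taking the background flags was decided after seeing the data. A probe was kept where at least 4 of 10 arrays had it well above background in Cy5, and the brightest probe stood for a gene, which gave 18921 genes. RefSeq's GRCm38.p6 table named 22951 of 41174 probes through an accession, 6659 through a symbol and 3109 through a synonym. The remaining 8455 have the files' own name. Coordinates of probes are those of mm7 in the files.

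Limma 3.58.1 in R 4.3.3 fitted genotype and sex, then their interaction, with Benjamini-Hochberg adjustment over all genes and a threshold of 0.05. It was tested on simulated data. The genes named are the 9 members with every probe, the genes of 4 related lists that passed and the 2 largest changes of each, and the genes most like each member. A pair of genes of these lists is not reported here, and the lists' counts and medians leave them out. Members and lists were chosen with earlier results of these data known. Alternatives were median centring, the scanner's ratio, the authors' table, another order of outlier removal, Cy5 alone, other probe rules, no sex term, slide and replicate blocks, and each liver left out. The main fit did not pair KO and WT livers by their numbers. Deviations from the group means correlated at 0.53, -0.43, 0.43, 0.51 and 0.22 between livers numbered 1 to 5. Sex and slide were not taken out of these deviations, and only number 2 joins a female and a male liver. The values therefore cannot decide whether the livers were paired. The number of arrays limits the precision.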

Additional observations from a re-analysis of the deposited data

Results flagged for a closer look

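G6pc in KO liver 5 stood apart from its group, at a log2 ratio of 5.91, while the other 4 KO livers lay between 5.62 and 5.68. Its gap to the nearest was 0.816 of the range of the 5 livers, past the 0.71 that marks an outlier. This was 1 of 36 groups of 5 livers examined over 18 genes, and chance gives about 1 in 20.

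Ppp1r3c was higher in every female KO liver than in the female WT livers and lower in every male KO liver than in the male WT livers, a difference between the sexes of 2.31 on the log2 scale. The interaction itself did not pass (limma adjusted p = 0.173), and with slide as a fixed block it was 0.46 (limma adjusted p = 0.992). Both female WT livers were on slide 3.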

How the results depend on the processing

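Gbe1 was higher in KO livers, with an adjusted p under the threshold, in all 23 alternatives tested (0.98 to 1.43 with the values within slides, limma adjusted p from 0.000158 to 0.0128). It was the only member to pass for genotype in 22 of them, and Pygl passed beside it (2 members) with the female KO livers alone. In that fit genotype and slide cannot be told apart. The 1134 genes past the threshold for genotype, 48.3% of them higher, became 280 with median centring (72.1% higher), 338 with outlier spots removed after the background fit (58.6% higher), 623 with no sex term and 307 with the replicate block. Leaving out 1 liver gave 600 to 1186, with 600 without KO liver 1, 601 without WT liver 3 and 670 without KO liver 4. For sex, the 2183 genes became 905 with median centring, 781 with the later outlier removal, 140 with the replicate block and 1427 with the female KO livers alone, and 1547 to 2503 without 1 liver. No member passed for sex with median centring, the scanner's ratio, slide as a fixed block or the replicate block, 2 passed with the female KO livers alone and 0 to 2 without 1 liver. For the effect that differed by sex, the 6 genes became 1 with the scanner's ratio, 1 with the later outlier removal, 14 with Cy5 alone, 11 with slide as a fixed block and 18 with the replicate block, and 2 to 119 without 1 liver (119 without KO liver 1, 53 without WT liver 3). Of the members 0 to 1 passed there without 1 liver, the 1 being Ppp1r3c without KO liver 1. Signs turned for Gys2, to 0.106 with median centring, 0.271 with the later outlier removal, 0.0993 with Cy5 alone, 0.0036 with the replicate block and 0.0495 with the female KO livers alone, and from -0.10 to 0.05997 without 1 liver. They turned for Ppp1r3c, to 0.0702 with the later outlier removal, 0.952 with the female KO livers alone and from -0.615 to 0.327 without 1 liver. They turned for Phka2, to -0.000633 with Cy5 alone, -0.0372 with slide as a fixed block and from -0.0156 to 0.194 without 1 liver, and for Stbd1, to -0.0899 with the female KO livers alone. The causes were not tested. The replicate block ended the calls of Slc2a2 (limma adjusted p = 0.0623) and G6pc (limma adjusted p = 0.0702), and 2 of 5 KO livers and 2 of 5 WT livers correlated best with their own number. The fit of the female KO livers alone, the dimmer Ugp2 probe, the sex effect of Gys2 and the sex differences of Pygl and Ppp1r3c were chosen for this after the data had been seen. Ppp1r3g has no value under the filter on all 10 arrays. The median of all genes moved to at most 0.0665.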
